A study of Danio rerio with 8 samples.

Results

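The genes described here encode the sarcomere, the contractile unit of striated muscle, and the proteins that anchor, fold or renew it. They were taken from a list of 47 zebrafish gene symbols, and a probe was assigned to a symbol through its RefSeq accession. The list names vmhc and myh7, which are one gene in the annotation used, now called myh7, and vmhcl, now called myh7l. It therefore holds 46 different genes. A probe was matched for 34 of them, and 31 of these passed the filter on dim probes (well above background on 4 or more arrays) and entered the comparison, among 21526 genes and unnamed probes in all. The probe of lmod2a was well above background on 1 sorafenib array, and those of nebl and cmya5 on 0 arrays. The other 12 genes, which include both titins (ttn.1 and ttn.2), the M-band genes myom1a, myom1b, myom2a and obscna, and csrp3, tcap, xirp2a, lmod2b, tmod1 and ankrd1a, were not analysed here.

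In a sarcomere, thick filaments of myosin pull on thin filaments of actin. Troponin and tropomyosin on the thin filament make this pull depend on calcium. Thin filaments are anchored at the Z-disc through alpha-actinin, and desmin ties neighbouring myofibrils to each other and to the cell membrane. The atrium and the ventricle of the zebrafish heart use different myosin heavy chains, and zebrafish mutants that lack the troponin T of tnnt2a have hearts that form but do not beat.

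Hearts came from zebrafish larvae at 4 days post-fertilization (dpf). In the sorafenib group the larvae had been kept in 1 uM sorafenib between 72 and 96 hours post-fertilization (hpf), and in the control group in the vehicle over the same hours. Sorafenib, used against cancer, blocks several kinases, among them RAF and the VEGF and PDGF receptors. Each group has 4 single-colour Agilent arrays of total heart RNA, which according to the labels are separate experiments. The labels name neither the strain nor the vehicle, nor how many hearts went into an array. The level of a gene is the log2 of its processed signal over the 75th percentile of the array, so that 0 is the brightness of that percentile. A level depends on the probe as well as on the transcript, and levels were compared only between arrays for the same probe.

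The 75th percentile of the processed signal was 85.1 to 154.6 across the arrays, between 54.98% and 59.54% of spots were well above background, and 0 spots were saturated. Sorafenib replicates 2 and 3 stood apart from the other 6 arrays in neural markers. All 17 neural genes measured had lower means with sorafenib. The median neural gene lay -1.29 and -1.35 from its control mean on these arrays, against -0.05 and -0.07 in sorafenib replicates 1 and 4 and -0.35 to 0.25 in controls. The summed neural signal, in units of the 75th percentile, was 241 to 313 in controls and 111 to 257 with sorafenib. All 13 liver and plasma protein genes measured had higher means with sorafenib, and their medians were 0.75, 0.99, 1.66 and -0.07 in sorafenib replicates 1 to 4, against -0.39 to 0.65 in controls. Their summed signal was 281 to 656 in controls and 304 to 811 with sorafenib. Skeletal muscle transcripts were also present in these samples. Over the 42 genes measured, their summed signal was 2490 to 3034 in controls and 2340 to 3071 with sorafenib. Over the 31 sarcomere genes measured, the summed signal was 433 to 599 in controls and 452 to 753 with sorafenib. The sums cover different genes and probes.

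Most sarcomere genes had higher mean levels in sorafenib-exposed hearts, but 0 of the 31 passed the test across all genes. The log2 fold change was above 0 for 26 of 31, against 48.1% of all 21526 units and 53.73% of the 8906 named genes. The median over the members was +0.23, against -0.02 over all units and +0.03 over the named genes. In limma with Benjamini-Hochberg adjustment, 0 of 21526 units passed at an adjusted p under 0.05 (0%), and the smallest adjusted p of a member was 0.552. At an unadjusted p under 0.05, 2 members were higher and 0 lower, where 4.16% and 3.3% of all units were higher and lower. These were xirp1 and actn2b. No member differed by 1 or more on the log2 scale, and for 29 of the 31 the 95% interval of the difference held 0. The standard error of a member's difference was 0.17 to 0.43 on the log2 scale. In bulk tissue, fewer or more heart muscle cells in a sample cannot be told apart from less or more RNA per cell. Skeletal muscle transcripts were also present, and how much of a member's level came from skeletal muscle was not tested.

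**Figure D1:**
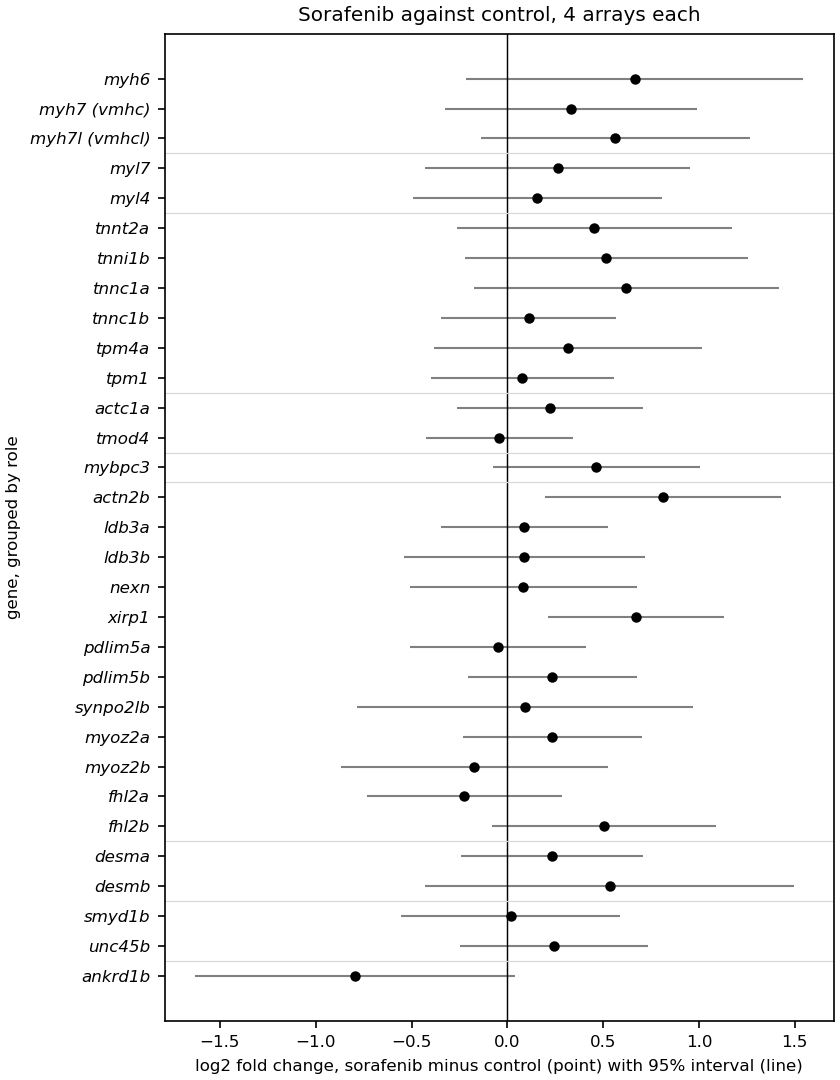
Log2 fold change of each of the 31 measured genes (points, x axis, sorafenib minus control) with its 95% interval from limma (lines), 4 arrays per group, grouped by role. 26 points lie above 0, and the intervals of 29 genes cross it, all but those of actn2b and xirp1.

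The members were highest on 2 of the sorafenib arrays. The median member lay 0.42 above its control mean in sorafenib replicate 2 and 0.52 above it in replicate 3, the arrays apart in neural markers. It lay 0.11 above it in replicate 1 and at -0.16 in replicate 4, where controls 1 to 4 were at 0.07, 0.30, 0.00 and -0.26. The groups overlapped. Of the 31 members, 18 in replicate 2 and 19 in replicate 3 were above every control array, compared with 8 in replicate 1 and 5 in replicate 4, where the shares of all units were 25.6%, 30.2%, 26.5% and 18.9%. Control replicate 4 gave the lowest control value for 18 members, against 30.8% of all units. Without sorafenib replicates 2 and 3 the median log2 fold change of the members was -0.02, with 14 of 31 above 0 and 0 at an unadjusted p under 0.05, where 1.76% of all units were higher and 1.64% lower. That fit keeps all 4 controls but drops the 2 sorafenib arrays on which the members were highest, which lowers the median by construction. With replicates 1 and 4 of both groups alone, a setting added after seeing the data, the median was +0.07, with 20 of 31 above 0. Leaving out 1 array moved the median from +0.23 to +0.12 without sorafenib replicate 3, +0.15 without sorafenib replicate 2, +0.14 without control replicate 4 and +0.36 without sorafenib replicate 4. Without sorafenib replicate 4, 8 members were higher at an unadjusted p under 0.05, but the share of all units also moved, to 9.36% higher and 8.64% lower. Without control replicate 1 there were 4, with 5.71% of all units higher. Between arrays of the same replicate number, the median member differed by 0.07, 0.25, 0.48 and 0.17 for numbers 1 to 4. The labels do not tie these numbers to a shared experiment. In all 4 comparisons 11 members were higher with sorafenib and 2 lower, beside 12.0% and 12.5% of all units. With the number as a block, 8 members were higher and 1 lower at an unadjusted p under 0.05, beside 6.60% and 6.76% of all units. The part of the neural and liver markers in these differences was not tested.

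**Figure D2:**
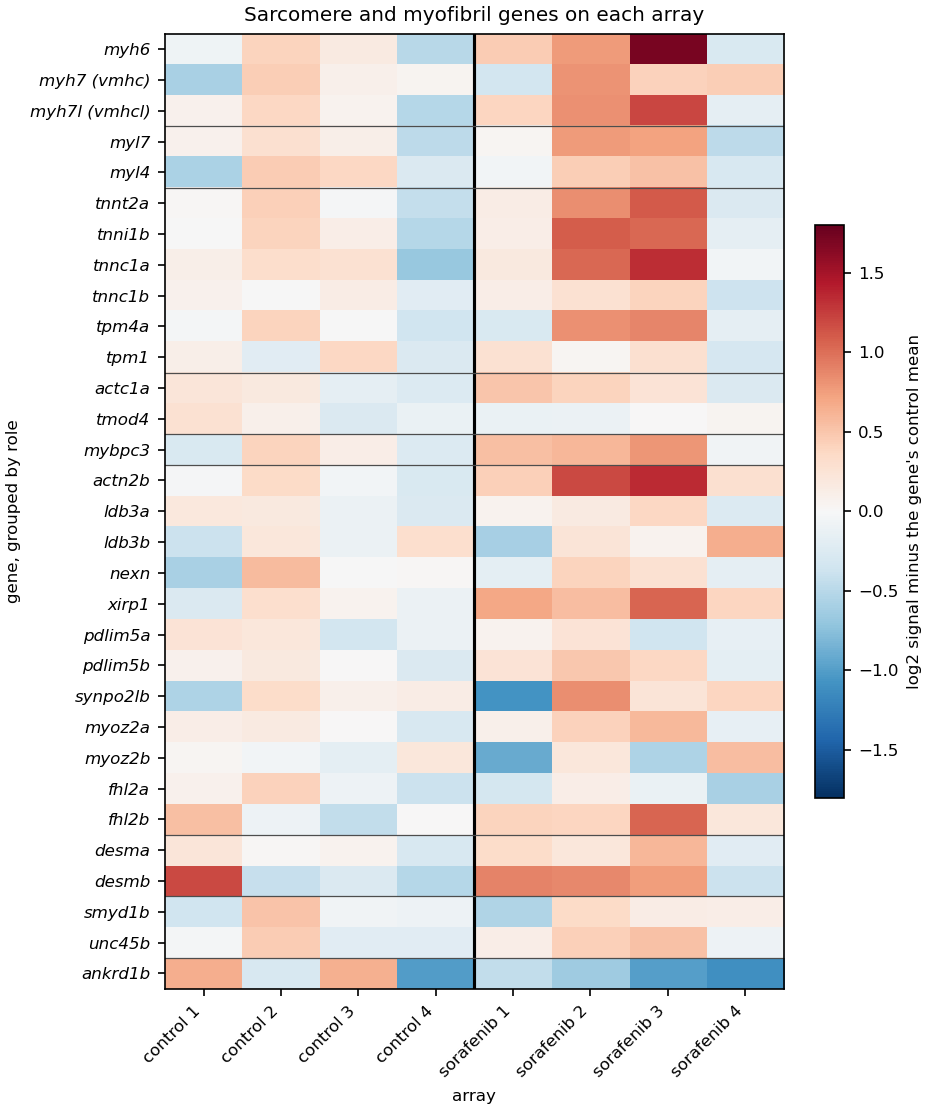
Level of each of the 31 genes (rows, grouped by role) on each of the 8 arrays (columns) as log2 signal minus the gene's control mean, on a colour scale that is red above and blue below that mean. Sorafenib replicates 2 and 3 are red for most genes, sorafenib replicate 4 and control replicate 4 are pale or blue for most.

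**Figure D3:**
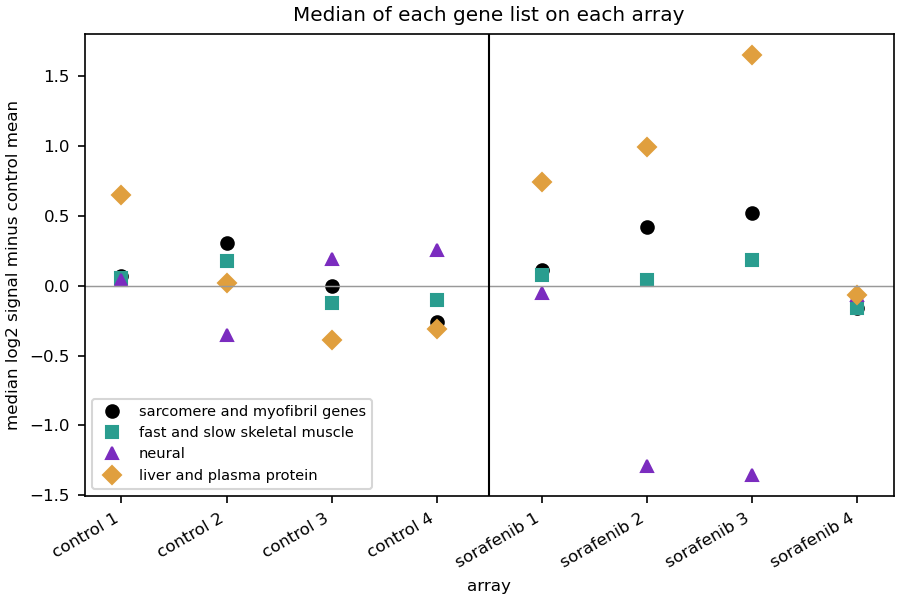
Median log2 signal minus control mean (y axis) of 4 gene lists on each array (x axis). The sarcomere genes are highest at 0.42 and 0.52 in sorafenib replicates 2 and 3, where neural genes lie at -1.29 and -1.35 and liver genes at 0.99 and 1.66.

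Myosin heavy chains form the motor of the thick filament. The atrial gene myh6 had levels of 0.71, 1.19, 0.96 and 0.29 in control replicates 1 to 4 and 1.25, 1.55, 2.50 and 0.51 in sorafenib replicates 1 to 4. Its highest value was in sorafenib replicate 3, while replicate 4 lay inside the control range. The mean difference was +0.66 ± 0.39 (SE), unadjusted p = 0.123 and adjusted p = 0.678 in limma, with a 95% interval of -0.22 to 1.54. The difference was +0.09 without sorafenib replicates 2 and 3, the 2 highest arrays for myh6, whose removal lowers it by construction. It was +0.38 when controls 2 and 3 were left out with them. The ventricular gene myh7, known in zebrafish as vmhc, had levels of 1.22, 2.24, 1.90 and 1.86 in controls and 1.47, 2.61, 2.22 and 2.25 with sorafenib. The 2 groups overlapped, and replicate 1 was the lowest in each. Its mean difference was +0.33 ± 0.29 (adjusted p = 0.767). The paralog myh7l (vmhcl) had levels of 4.71, 5.0, 4.70 and 4.12 in controls and 5.02, 5.46, 5.84 and 4.47 with sorafenib. Sorafenib replicates 1 to 3 were above every control, and replicate 4 was below 3 of the 4 controls. The difference was +0.56 ± 0.31 (unadjusted p = 0.103, adjusted p = 0.676). All 4 probes of myh7l had positive differences, between 0.41 and 0.63, although their mean levels ran from -1.75 to 4.91.

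The balance of atrial and ventricular myosin was read as myh6 minus myh7 on each array. Since the 2 genes have different probes, its size has no meaning of its own and only its differences between arrays were read. It was -0.51, -1.05, -0.94 and -1.57 in controls and -0.22, -1.06, 0.28 and -1.74 in sorafenib replicates 1 to 4. Sorafenib replicate 3 was the highest and replicate 4 the lowest of all 8 arrays. Controls averaged -1.02 ± 0.43 and sorafenib arrays -0.68 ± 0.89 (SD, 4 arrays each), a difference of +0.33. An exact permutation test, two-sided, gave p = 0.571, where 4 against 4 unpaired arrays can reach 0.0286 at the lowest. The difference was +0.14 on slide 1, +0.53 on slide 2 and +0.01 without sorafenib replicate 3.

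**Figure D4:**
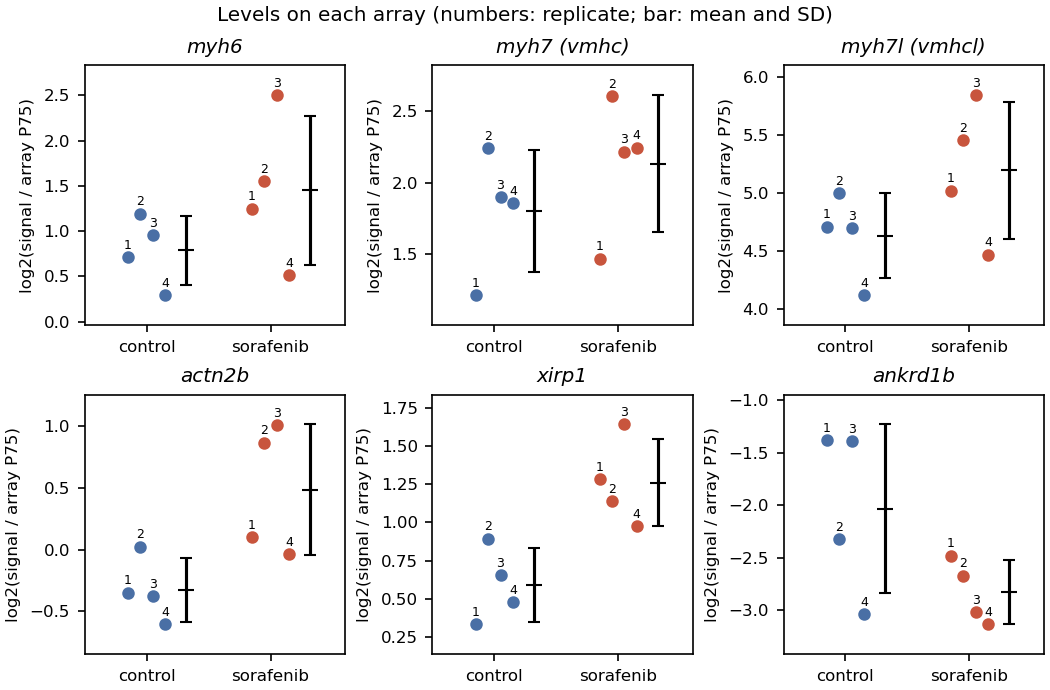
Levels of the 3 myosin heavy chain genes, actn2b, xirp1 and ankrd1b on each array (points, numbered by replicate, y axis in log2 of signal over the 75th percentile of the array), with mean and SD of each group (n = 4). For xirp1 all 4 sorafenib arrays lie above all controls, and in the other 5 panels the groups overlap.

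Myosin light chains stabilise the lever arm of the motor. The cardiac regulatory light chain gene myl7, expressed in both chambers and widely used to mark zebrafish heart muscle, had levels of 5.45, 5.66, 5.48 and 4.89 in controls and 5.40, 6.13, 6.10 and 4.90 with sorafenib. Sorafenib replicates 2 and 3 were above every control, and replicate 4 lay beside the lowest control. The difference was +0.26 ± 0.31 (adjusted p = 0.837). It was -0.22 without these 2 arrays, the highest for myl7, whose removal lowers it by construction. From replicates 1 and 4 of both groups it was -0.02. The essential light chain gene myl4 averaged 2.0 ± 0.50 in controls and 2.16 ± 0.39 with sorafenib (SD, n = 4), with overlapping groups.

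All 6 troponin and tropomyosin genes measured were above 0 by their brightest probe, with a median of +0.38, and 0 of them were at an unadjusted p under 0.05. Of all units, 48.1% were above 0 (53.73% of the named genes), and 4.16% were higher and 3.3% lower at that p. The troponin T gene tnnt2a had levels of 3.45, 3.86, 3.41 and 3.01 in controls and 3.57, 4.27, 4.53 and 3.17 with sorafenib. The troponin I gene tnni1b had levels of 2.31, 2.73, 2.45 and 1.81 and 2.44, 3.41, 3.35 and 2.16. The troponin C gene tnnc1a had levels of 1.17, 1.38, 1.34 and 0.38 and 1.24, 2.1, 2.39 and 1.02. For each of these 3 genes sorafenib replicates 2 and 3 were above every control, while replicates 1 and 4 lay within the control range. The differences were +0.45 ± 0.32 for tnnt2a, +0.52 ± 0.33 for tnni1b and +0.62 ± 0.35 for tnnc1a, with unadjusted p of 0.186, 0.150 and 0.112 in limma. Leaving out these 2 high arrays, the highest for each of the 3 genes, lowers a difference by construction. The differences were then -0.06, -0.02 and +0.06, and with controls 2 and 3 left out as well they were +0.15, +0.24 and +0.36. The paralog tnnc1b, which in zebrafish also serves slow skeletal muscle, averaged 5.61 ± 0.15 in controls and 5.72 ± 0.34 with sorafenib. Its difference of +0.11 ± 0.20 was within the spread of the arrays.

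Tropomyosin lies along the thin filament and blocks the myosin sites at rest. The cardiac tropomyosin gene tpm4a had levels of 4.66, 5.10, 4.68 and 4.34 in controls and 4.41, 5.52, 5.57 and 4.53 with sorafenib, and sorafenib replicate 1 was below 3 of the 4 controls. The difference was +0.31 ± 0.31 (adjusted p = 0.796), and its 3 probes gave 0.31 to 0.36. The gene tpm1 averaged 1.77 ± 0.29 in controls and 1.85 ± 0.28 with sorafenib, and its 2 probes gave +0.08 and -0.05. The alpha-cardiac actin gene actc1a had levels of 6.98, 6.94, 6.60 and 6.51 in controls and 7.26, 7.16, 7.0 and 6.50 with sorafenib. Sorafenib replicates 1 to 3 were above every control and replicate 4 was the lowest array. The gene tmod4, for a tropomodulin that caps thin filaments in skeletal muscle, averaged 5.02 ± 0.24 in controls and 4.98 ± 0.09 with sorafenib. Its difference of -0.04 ± 0.17 had a 95% interval of -0.43 to 0.34, and a second, dimmer probe gave +0.12.

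Of the proteins that bind the thick filament, mybpc3 was measured. It encodes cardiac myosin-binding protein C, which links the myosin and actin filaments. Its levels were 2.02, 2.68, 2.41 and 2.04 in controls and 2.83, 2.88, 3.08 and 2.23 with sorafenib. Sorafenib replicates 1 to 3 were above every control, and replicate 4 was within their range. The difference was +0.46 ± 0.24 (unadjusted p = 0.0827, adjusted p = 0.668), and the second probe gave +0.27.

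Of 12 measured genes grouped here under the Z-disc, 9 were above 0, with a median of +0.09. The share above 0 was 48.1% of all units and 53.73% of the named genes. At an unadjusted p under 0.05, where 4.16% of all units were higher and 3.3% lower, 2 of the 12 were higher and 0 lower. The gene xirp1, placed in this group, encodes a Xin repeat protein that binds actin and, in heart muscle, lies at the intercalated discs that join the cells. Its levels were 0.33, 0.89, 0.65 and 0.48 in controls and 1.29, 1.14, 1.64 and 0.98 with sorafenib. All 4 sorafenib arrays were above all 4 controls, the only member of which this held, where 2.28% of all units were separated in this direction and 1.91% in the other. The difference was +0.67 ± 0.20 (95% interval 0.21 to 1.13), with unadjusted p = 0.00880 and adjusted p = 0.552 in limma. It was +0.60 on slide 1, +0.74 on slide 2 and +0.54 without sorafenib replicates 2 and 3 (unadjusted p = 0.0575). In sorafenib replicates 1 and 4, 8 and 5 of the 31 members were above every control. That xirp1 was among them in both follows from the separation above and adds nothing to it. Of all units, 26.5% and 18.9% were above every control on these arrays.

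The alpha-actinin gene actn2b, whose product cross-links actin at the Z-disc, had levels of -0.35, 0.02, -0.38 and -0.60 in controls and 0.10, 0.87, 1.01 and -0.04 with sorafenib. Sorafenib replicates 1 to 3 were above every control, and replicate 4 was below control replicate 2 alone. The difference was +0.81 ± 0.27 (95% interval 0.19 to 1.43), with unadjusted p = 0.0155 and adjusted p = 0.604. Without sorafenib replicates 2 and 3, the 2 highest arrays for actn2b, it was +0.36 (unadjusted p = 0.176). Both xirp1 and actn2b were at an unadjusted p under 0.05 in each of the 8 fits that left out 1 array. In these fits 2.36% to 9.36% of all units were higher at that p. The fits reuse the arrays from which the 2 genes were picked, so they are not separate support. Within slide 1 the unadjusted p in limma was 0.105 for xirp1 and 0.132 for actn2b. Within slide 2 it was 0.0898 and 0.0754. The LIM-domain gene fhl2b, for a protein that binds titin, had levels of 4.73, 4.10, 3.75 and 4.19 in controls and 4.59, 4.57, 5.23 and 4.39 with sorafenib, and control replicate 1 exceeded 3 of the sorafenib arrays. Its difference was +0.50 ± 0.26 (unadjusted p = 0.0829), it was +0.17 on slide 1 and +0.84 on slide 2, and a second, dimmer probe gave -0.20. The paralog fhl2a averaged 5.14 ± 0.33 in controls and 4.91 ± 0.30 with sorafenib, a difference of -0.22 ± 0.23.

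Other Z-disc genes had differences smaller than the larger SD of their 2 groups. The gene ldb3a, for a PDZ and LIM protein known as Cypher or ZASP, had levels of 5.22, 5.21, 4.93 and 4.77 in controls and 5.09, 5.20, 5.40 and 4.79 with sorafenib. The nexilin gene nexn had levels of -0.12, 1.04, 0.45 and 0.48 and 0.29, 0.86, 0.74 and 0.30, with all sorafenib values inside the control range. Differences were +0.09 ± 0.19 for ldb3a and +0.08 ± 0.26 for nexn. The paralog ldb3b averaged 1.71 ± 0.31 in controls and 1.79 ± 0.51 with sorafenib, and its 2 probes gave +0.09 and -0.24. The genes pdlim5a and pdlim5b encode PDZ and LIM proteins as well. The first averaged -3.62 ± 0.27 in controls and -3.67 ± 0.26 with sorafenib, and the second 4.35 ± 0.19 in controls and 4.58 ± 0.29 with sorafenib. The calsarcins of myoz2a and myoz2b bind calcineurin at the Z-disc. Their genes averaged 1.75 ± 0.20 in controls and 1.98 ± 0.33 with sorafenib for myoz2a, and 0.19 ± 0.16 in controls and 0.01 ± 0.67 with sorafenib for myoz2b. The synaptopodin-like gene synpo2lb averaged -0.09 ± 0.38 in controls and 0.00 ± 0.82 with sorafenib, with -1.17 in sorafenib replicate 1 as its lowest array.

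Desmin is the intermediate filament of muscle. The gene desma had levels of 6.53, 6.33, 6.38 and 6.02 in controls and 6.64, 6.52, 6.91 and 6.11 with sorafenib, a difference of +0.23 ± 0.21 with overlapping groups, and its 3 probes gave 0.23 to 0.42. The paralog desmb was dim, well above background on 3 of 4 control arrays and on all 4 sorafenib arrays, and averaged -4.11 ± 0.80 in controls and -3.58 ± 0.61 with sorafenib. Both genes for proteins that fold myosin were measured. The methyltransferase gene smyd1b, needed in zebrafish for thick filament assembly, had levels of 0.83, 1.70, 1.11 and 1.09 in controls and 0.64, 1.53, 1.32 and 1.31 with sorafenib. The myosin chaperone gene unc45b had levels of 2.46, 2.95, 2.29 and 2.29 and 2.62, 2.92, 3.02 and 2.40. Neither pair of groups was separated, with differences of +0.02 ± 0.25 and +0.24 ± 0.22.

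The gene ankrd1b pointed the other way. Its ortholog in mammals encodes an ankyrin repeat protein that binds titin and responds to stretch of the heart muscle. The levels of ankrd1b were -1.38, -2.32, -1.39 and -3.04 in controls and -2.48, -2.67, -3.02 and -3.13 with sorafenib. All sorafenib arrays were below the control mean, but control replicate 4 was lower than 3 of them. The difference was -0.79 ± 0.37 (95% interval -1.63 to 0.04), with unadjusted p = 0.0601 and adjusted p = 0.661. It was -0.72 on slide 1, -0.86 on slide 2 and -0.78 without sorafenib replicates 2 and 3. When 1 array was left out it ranged from -1.13, without control replicate 4, to -0.58, without control replicate 1. The probe is dim. The difference was +0.19 with the planned normexp background correction, whose fit was taken to have failed on sorafenib replicate 4. It was -0.22 with normexp fitted without spots of uneven local background, and -0.28 in the authors' processed values.

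The arrays came from 2 slides, each with 2 control and 2 sorafenib arrays. The median log2 fold change of the members was +0.17 on slide 1 and +0.31 on slide 2. Of the 31 members, 21 were above 0 on both slides, 4 below 0 on both (ankrd1b, fhl2a, myoz2b and pdlim5a) and 6 of opposite sign. The value was larger on slide 2 for 23 of 31. With the slide as a block in the fit the same 2 members, actn2b and xirp1, were at an unadjusted p under 0.05. In that fit 3.99% of all units were higher and 3.24% lower at that p. Replicates 1 and 2 of each group were on slide 1 and replicates 3 and 4 on slide 2, so each slide held 1 of the 2 arrays with low neural markers.

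**Figure D5:**
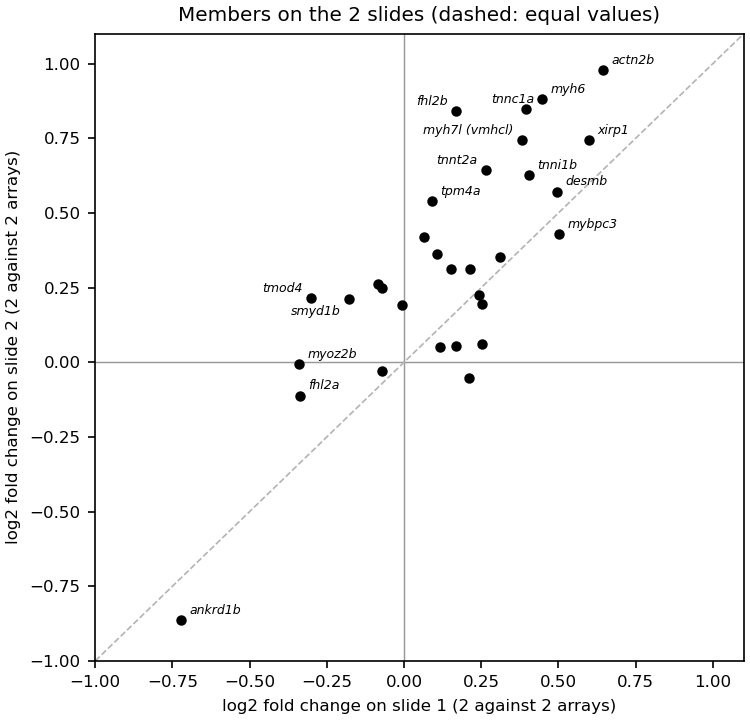
Log2 fold change of the 31 members computed from slide 1 alone (x axis) and from slide 2 alone (y axis), each from 2 sorafenib and 2 control arrays, with a dashed line of equal values. 23 points lie above that line, 21 lie above 0 on both axes, and ankrd1b lies far below 0 on both.

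Another 3 gene groups of muscle were read from the same fit, and 0 genes of any passed over all units. The lists were chosen with earlier results of these data known, so their counts describe them and are not separate support. Of 16 genes measured for muscle chaperones and protein turnover, 14 were above 0, with a median of +0.24. The share above 0 was 48.1% of all units and 53.73% of the named genes. At an unadjusted p under 0.05, where 4.16% of all units were higher and 3.3% lower, 3 of the 16 were higher and 0 lower. These were fbxl22, for an F-box protein of the Z-disc (+0.68 ± 0.22, unadjusted p = 0.0119), and the small heat shock protein genes hspb7 (+0.90 ± 0.29, unadjusted p = 0.0123) and hspb8 (+0.48 ± 0.18, unadjusted p = 0.0214). For hspb8 all 4 sorafenib arrays were above all controls, where 2.28% of all units were separated in this direction. Its levels were 4.11, 4.23, 3.87 and 3.95 in controls and 4.47, 4.52, 4.82 and 4.29 with sorafenib. Those of hspb7 were -0.56, -0.13, -0.71 and -0.76 and 0.00, 0.87, 0.81 and -0.25, where control replicate 2 was above sorafenib replicate 4. Medians of this list were 0.17, 0.32, 0.28 and 0.26 in sorafenib replicates 1 to 4, against -0.09 to 0.20 in controls. In sorafenib replicate 4 the median was thus 0.26 in this list and -0.16 among the sarcomere genes, a difference that was not tested.

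Genes of costameres and intercalated discs, which couple myofibrils to the membrane and to the next cell, were above 0 in 11 of 17 cases with a median of +0.06, and 0 were at an unadjusted p under 0.05. The smallest p values belonged to the plakophilin gene pkp3a (+0.39 ± 0.18, unadjusted p = 0.0630), the focal adhesion gene zyx (+0.64 ± 0.34, 0.0890) and the sarcoglycan gene sgcb (+0.34 ± 0.29, 0.260). Skeletal muscle genes outside the members were above 0 in 21 of 42 cases, with a median of 0.00, and 0 were at an unadjusted p under 0.05. Those with the smallest p were the fast myosin light chain gene mylpfb (-0.56 ± 0.26, unadjusted p = 0.0625), the muscle lineage factor myod1 (+0.42 ± 0.21, 0.0807) and the fast troponin I gene tnni2a.3 (+0.40 ± 0.23, 0.113). Other marker lists also differed in their means: 10 of 11 endothelial genes were below 0, while all 4 smooth muscle genes (desmb among them), all 4 epicardial and 6 of 7 erythroid genes were above 0 and 3 of 5 leukocyte genes. The share above 0 was 48.1% of all units and 53.73% of the named genes. At an unadjusted p under 0.05, 4.16% of all units were higher and 3.3% lower, beside 0 of 17 costamere and disc genes and 0 of 42 skeletal muscle genes. The endothelial genes cdh5 and kdrl and the epicardial gene wt1a were well above background on 0 arrays. The part of these cells in the values of the sarcomere genes was not tested.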

How the data were processed

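Heart RNA of 8 samples was measured on 1-colour Agilent arrays, 4 per group. The deposited scanner files give, per the file headers, the intensity of each of 45220 spots after background subtraction and detrending by Agilent Feature Extraction. The headers name version 10.1.1.1 and the submitters' processing notes version 8.0. The authors also deposited a table of log2 values for 21383 probes. Its column medians were 7.195 to 7.222, and how the authors scaled it is not given in the sources used here. It correlated with the log2 scanner intensity of the same array at r of 0.998 to 0.999. This r covers only the 12716 to 12841 probes an array that were clear of the table's lowest value. Deviations of an array from the mean of the other arrays correlated at 0.925 (sorafenib replicate 4) to 0.991 (sorafenib replicate 2), also without probes near that value.

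For the values reported here, control spots and spots with an outlier mark (5 to 15 an array) were left out, spots of a probe were averaged, and the log2 of each signal was taken relative to the 75th percentile of its array. Probes well above background on at least 4 of 8 arrays were kept. Of 43603 probes, 15163 (34.8%) were matched by RefSeq accession to 10536 genes of the GRCz12tu annotation, used for names only. The probe with the highest mean stood for a gene, and each unnamed probe stood for itself. Probe sequences were not used here, so cross-hybridisation between paralogs was not checked.

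Groups were compared with limma 3.58.1 (R 4.3.3) without covariates, with Benjamini-Hochberg adjustment over 21526 units. The procedure was tested on simulated data with independent noise in each gene and array, so shifts shared by many genes were not covered. The difference of 2 myosin genes was tested by exact permutation. Alternatives were other scalings, background corrections, filters and probe choices, the authors' values, slide and replicate blocks, array weights, and arrays left out. The number of arrays limits the precision.

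Members and gene lists were chosen with earlier results of these data known. Values of every array are given for the 10 members with the smallest p and for representatives of each role, means for the other members, and the 3 genes with the smallest p for each further muscle list.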

Additional observations from a re-analysis of the deposited data

Results flagged for a closer look

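In 2 of 64 groups of 4 arrays, 1 array lay far from the other 3 relative to the range of the group. Chance alone gives about 1 in 20, or 3.2 of 64. Both cases were the desmin paralog desmb. It stood at -2.92 in control replicate 1, where the other controls were at -4.62 to -4.37. It stood at -4.49 in sorafenib replicate 4, where the other sorafenib arrays were at -3.35 to -3.22. The probe was well above background on 3 of the 4 control arrays.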

How the results depend on the processing

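In limma, 0 members passed at an adjusted p under 0.05 in any setting run, and the smallest adjusted p of a member was 0.105, with array weights. Among all units, the count past that threshold was 0 as reported, 2 with quantile normalization, 1 with the array median as scale, 7 in the authors' values (3 higher, 4 lower) and 22 with array weights (13 higher, 9 lower). It was 0 to 1 when 1 array was left out. The count of members at an unadjusted p under 0.05 was 2 as reported. It was 0 within slide 1, within slide 2, without sorafenib replicates 2 and 3, and with replicates 1 and 4 of both groups alone, where 1.41%, 1.67%, 1.76% and 0.534% of all units were higher, so 0 of 31 is near the share of all units. It was 2 to 8 when 1 array was left out, where 2.36% to 9.36% of all units were higher and 1.89% to 8.64% lower. With array weights it was 10 (10 higher, 0 lower), where 11.0% of all units were higher and 11.1% lower. Sorafenib replicate 4 had the lowest array weight (0.36). The median of the members was 0.12 to 0.36 when 1 array was left out.

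Normexp on the median signal with an offset of 50 gave a median of -0.19 for the members, with 21 of 31 changed in sign. This fit was taken to have failed on sorafenib replicate 4, where 6 spots had a local background far above their signal (lowest net signal -163702). On sorafenib replicate 1 the lowest net signal was -408.5. In this fit actn2b and desmb, but not xirp1, were higher at an unadjusted p under 0.05. Of all units, 3.08% were higher and 4.74% lower at that p. Leaving out spots with a mark for uneven local background on every array, a setting added after seeing the data, gave a median of +0.16 for the members. In that setting 5 members were higher at an unadjusted p under 0.05 (myh7l, mybpc3, actn2b, xirp1 and fhl2b) and 0 lower. Of all units, 3.68% were higher and 3.06% lower, and 1 unit was past the adjusted threshold. The difference of myh6 and myh7 was 0.01 to 0.68 in all alternatives. It was not run with array weights.

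Deviations of arrays with the same replicate number correlated at 0.27, 0.42, 0.04 and 0.70. The labels do not tie arrays of the same number to a shared experiment, and the main fit did not take the numbers as pairs. Sorafenib replicate 3 correlated best with control replicate 1 (0.23), the other sorafenib arrays with their own number. With the replicate block, 9 members were at an unadjusted p under 0.05, 8 higher and 1 lower, beside 6.60% and 6.76% of all units, and 0 passed the adjusted threshold. Between arrays of the same number, 11 of 31 members were higher with sorafenib in all 4 comparisons (myh6, myh7, myh7l, tnnt2a, tnni1b, tnnc1a, mybpc3, actn2b, xirp1, pdlim5b and desma) and 2 lower (fhl2a and ankrd1b), beside 12.0% and 12.5% of all units. The median of the members was 0.07, 0.25, 0.48 and 0.17 for numbers 1 to 4.

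Dim probes limit what can be read: lmod2a, nebl and cmya5 were too dim to compare, desmb was near background, and 12 members were not analysed here. For 4 of 13 genes with several probes the probes differed in sign (fhl2b, ldb3b, tmod4 and tpm1). Over the alternatives other than the planned normexp fit, xirp1 ranged from 0.53 to 0.77, actn2b from 0.36 to 1.03, ankrd1b from -1.13 to -0.22 and myh6 from 0.09 to 0.98. In that fit, which was taken to have failed, they were at +0.35, +0.60, +0.19 and +0.38. The values of xirp1 and ankrd1b were thus outside these ranges. The causes of these shifts were not tested.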
